A study of Homo sapiens with 2 samples.

Results

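The amino acid response genes described here are AARS1, EPRS1, PSAT1 and PCK2, 4 of the 2792 genes in a table of array intensities from HepG2, a human hepatoma cell line. They were chosen by name, and every probe set that the platform annotation assigns to 1 of them alone was taken, which gave 73 of the 42575 probe sets with a single symbol. AARS1 has 23, EPRS1 29, PSAT1 9 and PCK2 12, and the annotation writes the synthetases under their older symbols AARS and EPRS. The platform is a human exon array, whose probe sets each stand for about 1 exon, and a gene is therefore read at several places. All 73 had a value on both arrays and none was removed for a low value. No probe set naming several genes named a member.

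The study compared HepG2 cells transfected with an antisense oligonucleotide of locked nucleic acid (LNA) directed at the noncoding RNA TUC338 with HepG2 cells transfected with a control LNA. Both sets of cells were grown on collagen-coated plates, and each is represented by 1 array. The labels give no genotype change, dose or time after transfection, and do not say how many cultures an array holds. Knockdown was verified experimentally according to the submitters. Of the annotated probe sets 0 name TUC338, so the knockdown could not be checked here.

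Cells that run short of an amino acid, or whose endoplasmic reticulum is stressed, phosphorylate the translation factor eIF2. General protein synthesis then slows while the transcription factor ATF4 is made in larger amount. ATF4 acts with C/EBP-family partners at composite DNA elements of genes for amino acid uptake, amino acid synthesis and tRNA charging, and the 4 genes here are known among its targets. AARS1 encodes alanyl-tRNA synthetase, and EPRS1 the bifunctional glutamyl-prolyl-tRNA synthetase, which also scaffolds the multi-synthetase complex. PSAT1 encodes phosphoserine aminotransferase of the serine synthesis pathway. PCK2 encodes the mitochondrial PEP carboxykinase, which makes phosphoenolpyruvate from oxaloacetate and in tumour cells feeds carbon towards serine.

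Promoters were searched because such an element is the known site of ATF4 action and the 4 genes lay on the same side of the median gene. Reference sequence is shown for 3 of the genes, AARS1, PSAT1 and EPRS1, those with a match to a motif searched. The window of PCK2, the member with the largest difference, held no match and is not shown. The windows run from 250 bases before the annotated start to 50 bases after it, from RefSeq on GRCh38.p14, and all 4 members matched an entry. The motif searched was TGATGNAA, the core of a C/EBP-ATF composite element, on both strands. It was found in 1 of the 4 windows, that of AARS1, at base 64 of the window and on the strand opposite to the gene. It occurs in 3.62% of 35116 promoters of the same length. Capitals in the AARS1 line mark the match.
AARS1, chr16:70289507-70289756, minus strand, the 250 bases before the start: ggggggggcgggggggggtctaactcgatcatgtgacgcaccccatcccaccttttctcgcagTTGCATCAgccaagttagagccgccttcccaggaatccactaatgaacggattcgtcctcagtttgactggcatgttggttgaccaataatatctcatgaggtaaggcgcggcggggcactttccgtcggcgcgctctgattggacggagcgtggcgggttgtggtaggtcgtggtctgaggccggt

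After these sequences were seen, the shorter core ATGCAA, which lies within TGATGCAA and so overlaps the AARS1 match, was searched on both strands. It was found in 3 of the 4 windows, AARS1, PSAT1 and EPRS1, and occurs in 10.1% of all promoters. In PSAT1 it starts at base 61, before the start of the gene, and in EPRS1 at base 284, after it. The 30 bases at the end of the EPRS1 window are shown, with capitals marking ATGCAA in both lines as its reverse complement. These letters describe the reference only, and binding of any factor was not measured.
PSAT1, chr9:78296875-78297124, plus strand, the 250 bases before the start: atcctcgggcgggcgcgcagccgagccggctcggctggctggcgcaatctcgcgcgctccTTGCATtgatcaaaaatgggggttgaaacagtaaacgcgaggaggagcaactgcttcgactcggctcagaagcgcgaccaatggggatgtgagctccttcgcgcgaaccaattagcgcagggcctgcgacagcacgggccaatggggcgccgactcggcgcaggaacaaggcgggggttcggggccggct
EPRS1, chr1:220046456-220046485, minus strand, the last 30 bases of the window: gtacgcgcacacgTTGCATcttcttccttt

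With 1 array per condition, no difference below has a replicate check and no p-value is given. The knockdown array was the brighter, with a median intensity of 507 over 45200 probe sets against 422 on the control array. The median gene, over the 2742 genes with at least 4 probe sets, had a mean log2 difference of 0.29, and 83.4% of these genes had a mean above 0 in deposited values. The table holds only part of the genes that an exon array can measure and the basis of their choice is not stated in the sources, so the median gene and every share of genes refer to this subset. Differences are therefore given both as deposited (knockdown minus control, log2) and relative to the median gene, that is, less this 0.29. Some settings replaced the gene mean by the median or brightest probe set, or left out dim probe sets. For these the median gene was taken anew within the setting. This holds for every brightest probe set given without its number. For example, the brightest probe set of PCK2 lay at 0.57 less the 0.29 and at 0.65 in that setting. The SD printed with a gene mean is the spread over its probe sets on the same 2 arrays, not over cultures. Pooled over genes, that SD was 0.28. Of 19 hepatocyte and HepG2 markers listed, 8 are in the table, and 7 of them, including albumin, transferrin and glypican 3, had mean levels between 9.98 and 13.02 on the arrays. CPS1 had 8.57 in the knockdown and 8.71 in the control. Of the 8 fibroblast markers 2 are in the table. COL1A1 had mean levels of 7.89 and 8.51 (knockdown, then control) and PDGFRB 8.17 and 7.66. Of the 6 leukocyte and 5 endothelial markers listed, 0 are in the table, so these cell types could not be checked.

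All 4 genes were higher on the knockdown array than the median gene was. Relative to the median gene the mean differences were 0.54 ± 0.19 for PCK2, 0.38 ± 0.18 for AARS1, 0.35 ± 0.30 for PSAT1 and 0.14 ± 0.25 for EPRS1 (log2, SD over probe sets). In folds these are 1.46, 1.31, 1.27 and 1.10. In RNA from whole cultures, more cells with a transcript and more of it per cell cannot be told apart. PCK2, AARS1 and PSAT1 were at least 25% higher than the median gene, a size that 11.5% of the 2742 genes reached, while no member reached 1.5-fold, which 2.26% of genes did. In deposited values the same 3 genes were at least 1.5-fold higher, as were 13.1% of genes. The genes were selected with earlier results from these arrays known, so these counts do not test the group. In deposited values all 4 were at least 25% higher, as were 43.8% of genes. PSAT1 stood close to the 25% line and was under it with medians over probe sets (0.30), with its brightest probe set (0.27) and with probe sets of above-median level only (0.23). Each of these settings was set against its own median gene. Against the median gene used elsewhere, that brightest probe set lay at 0.18.

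Neighbours in this order could not be separated beyond their spread. PCK2 exceeded AARS1 by 0.16 and AARS1 exceeded PSAT1 by 0.04, both smaller than the SD of either gene. PSAT1 exceeded EPRS1 by 0.21, again less than either SD. Only PCK2 against EPRS1, the ends of the order, differed by more than both SDs, by 0.41, and even there 9 of the 12 PCK2 probe sets lay at or below the highest EPRS1 probe set. Levels were not ordered between genes, since the brightness of different probe sets cannot be compared.

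**Figure D1:**
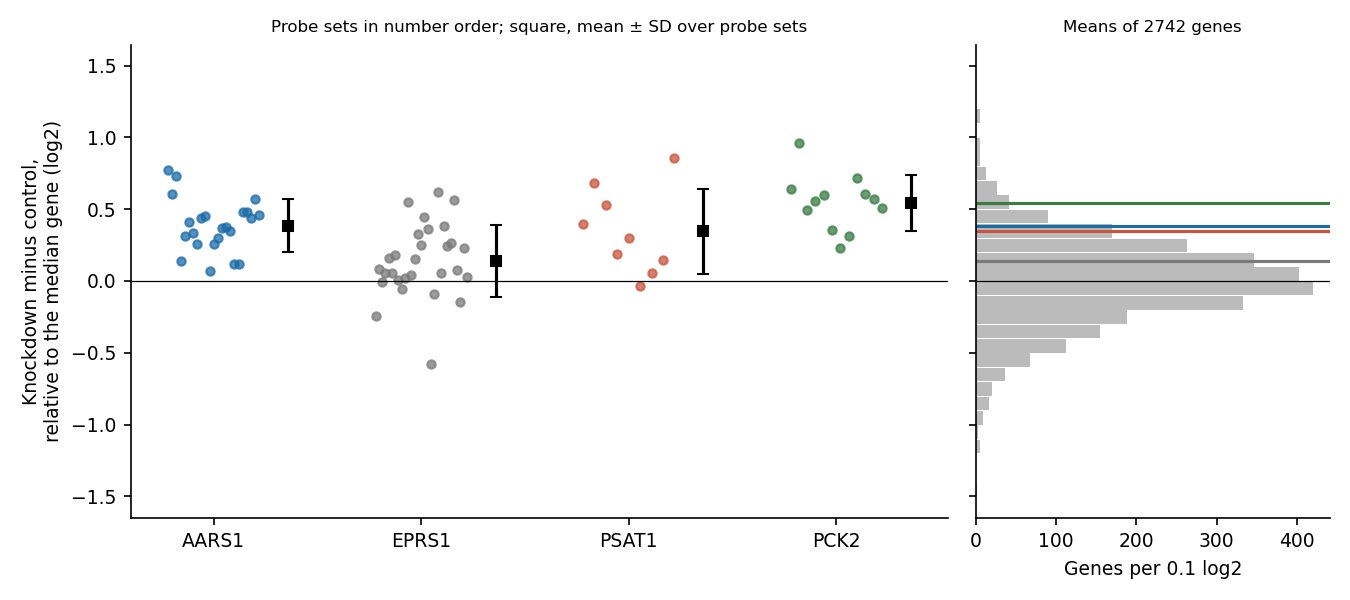
Left, knockdown minus control relative to the median gene (log2) for each probe set of AARS1, EPRS1, PSAT1 and PCK2 in order of probe set number, with the mean ± SD over probe sets as a black square. Right, the number of genes per 0.1 log2 among the means of 2742 genes, with a coloured line at each member's mean; PCK2 at 0.54 lies in the upper tail and EPRS1 at 0.14 near the centre.

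PCK2 had the largest difference of the 4, and all of its probe sets shared the direction. On the control array its 12 probe sets ran from 7.96 to 11.62 with a median of 9.49, and on the knockdown array from 8.74 to 12.48 with a median of 10.15 (log2 intensity). Every probe set was higher in the knockdown, and all 12 lay above the median gene, by 0.23 to 0.96. Among the 1459 genes with at least 12 probe sets, 5.28% lay above the median gene at every probe set. The mean level was 10.36 against 9.53, which is 1.78-fold. Of the 2742 genes, 75 including PCK2 (2.74%) had a mean difference as large.

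Within PCK2 the smallest difference was at probe set 3529531, with 10.58 in the knockdown and 10.06 in the control. The largest was at probe set 3529519, with 9.79 and 8.54. At its brightest probe sets, 3529542 (12.48 and 11.62) and 3529543 (12.08 and 11.29), the differences were 0.85 and 0.79. Both lay well above the median gene, at 0.57 and 0.51. Leaving out any 1 probe set kept the mean between 0.51 and 0.57.

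AARS1, the alanyl-tRNA synthetase, had all 23 of its probe sets brighter than the median probe set. They ran from 9.52 to 12.20 on the control array, with a median of 10.99, and from 10.53 to 12.79 on the knockdown array, with a median of 11.64. All 23 were higher in the knockdown, by 0.36 to 1.06 in deposited values, and all 23 lay above the median gene. Of the 489 genes with at least 23 probe sets, 15 (3.07%) including AARS1 lay above the median gene throughout. The mean level was 11.70 against 11.03, or 1.59-fold in deposited values.

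The AARS1 probe sets with the 3 lowest numbers stood above the others. Probe set 3697017 had 12.28 in the knockdown and 11.22 in the control, 3697018 had 11.09 and 10.20, and 3697019 had 10.53 and 9.52. Relative to the median gene these differed by 0.77, 0.61 and 0.73, the only 3 of the gene at 1.5-fold or more, a size that 6.1% of all probe sets reached. The other 20 averaged 0.34 ± 0.14 and ran from 0.07 to 0.57, so the gene mean without the 3 was 1.26-fold. This split was made after the values were seen, and where the probe sets lie in the gene was not analysed here. The RefSeq gene table lists 1 pseudogene named after AARS1, and cross-hybridisation was not tested.

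EPRS1, with the most probe sets, had the smallest difference. On the control array its 29 probe sets ran from 7.23 to 11.57 with a median of 9.96, and on the knockdown array from 8.07 to 11.92 with a median of 10.20. In deposited values 28 of 29 were higher in the knockdown, but 75.2% of all probe sets were. Relative to the median gene 23 of 29 lay above and 6 at or below it, where 47.7% of all probe sets lay above. The mean level was 10.25 against 9.83, which is 1.34-fold in deposited values and 1.10-fold relative to the median gene. A mean difference as large was found in 29.8% of genes, so EPRS1 was not set apart from the bulk of the genes.

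EPRS1 probe sets also disagreed with one another more than those of AARS1 or PCK2 did, with an SD of 0.25 against 0.18 and 0.19. The SD pooled over genes was 0.28, so that of EPRS1 was not above it. Probe set 2456778 was the one lower on the knockdown array, with 10.09 against 10.38. Probe set 2456780, of similar level, showed the largest difference, with 11.03 against 10.12, or 0.62 above the median gene. The bright probe sets 2456783 (11.92 and 11.57), 2456779 (11.68 and 11.49) and 2456790 (11.56 and 11.42) differed by 0.06, -0.09 and -0.15 relative to the median gene. Without probe set 2456778 the mean was 0.16.

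PSAT1, the serine synthesis enzyme, had the widest spread of the 4. On the control array its 9 probe sets ran from 7.42 to 12.95 with a median of 11.53, and on the knockdown array from 8.57 to 13.42 with a median of 11.87. All 9 were higher in the knockdown, by 0.25 to 1.14 in deposited values, and 8 of 9 lay above the median gene. The mean level was 11.23 against 10.60, or 1.55-fold in deposited values, and 9.59% of genes had a mean difference as large.

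The largest PSAT1 differences were at its dimmest probe sets. The dimmest, 3175991 (8.57 in the knockdown and 7.42 in the control) and 3175978 (8.75 and 7.79), were 0.86 and 0.68 above the median gene. The other 7 averaged 0.22 ± 0.20. Among these, 3175979 (12.66 and 11.84) reached 0.53 and the brightest, 3175982 (13.42 and 12.95), 0.18, while 3175985 (11.61 and 11.36) lay at -0.04. Without the 2 dimmest, chosen after the values were seen, the gene mean was 1.17-fold relative to the median gene. RefSeq lists 4 pseudogenes named after PSAT1, and cross-hybridisation was not tested.

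**Figure D2:**
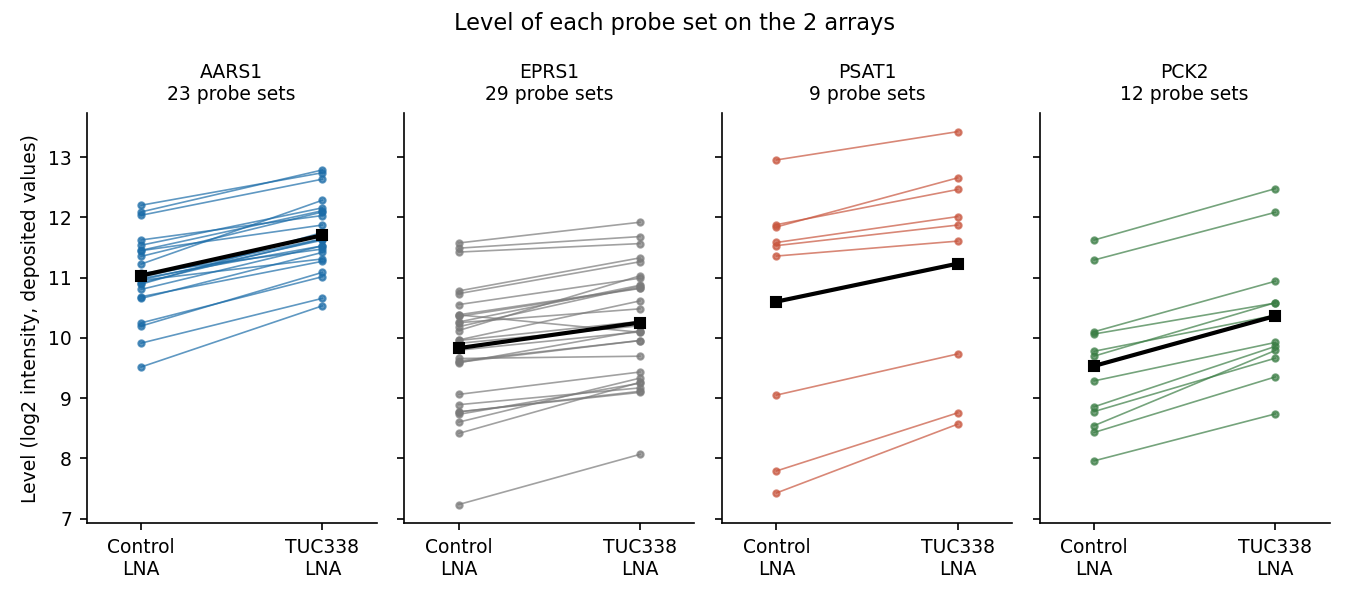
Level (log2 intensity, deposited values) of every probe set of the 4 genes on the control array and on the knockdown array, joined by a line for each probe set, with the gene mean as black squares. Every line of AARS1, PSAT1 and PCK2 goes up from control to knockdown, and 28 of the 29 lines of EPRS1 do.

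Brightness mattered for the array as a whole, so each probe set was also set beside others of its own level. The median difference over all probe sets was 0.30 among the 25% of lowest level and 0.22 among the 25% of highest level (deposited, log2), and the spread was narrower among bright probe sets. Within steps of 0.5 in level, 20 of the 73 member probe sets lay above the 95th percentile of all probe sets of the same step, and 52 lay above the 75th. For PCK2 this was 6 and 12 of 12, for AARS1 9 and 20 of 23, and for PSAT1 4 and 7 of 9. For EPRS1 it was 1 and 13 of 29. Subtracting a loess curve of difference on level gave means of 0.59 for PCK2, 0.46 for AARS1, 0.40 for PSAT1 and 0.19 for EPRS1, each slightly above the value relative to the median gene.

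Across the probe sets of a gene, level and difference were weakly and negatively related in all 4, with Spearman's rho of -0.38 for PSAT1 (9 probe sets), -0.35 for AARS1 (23), -0.34 for PCK2 (12) and -0.11 for EPRS1 (29). The probe sets share their 2 arrays and the level enters both measures, so these are descriptions. The median rho over the 1991 genes with at least 9 probe sets was -0.17, and 1435 of them had a rho below 0.

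**Figure D3:**
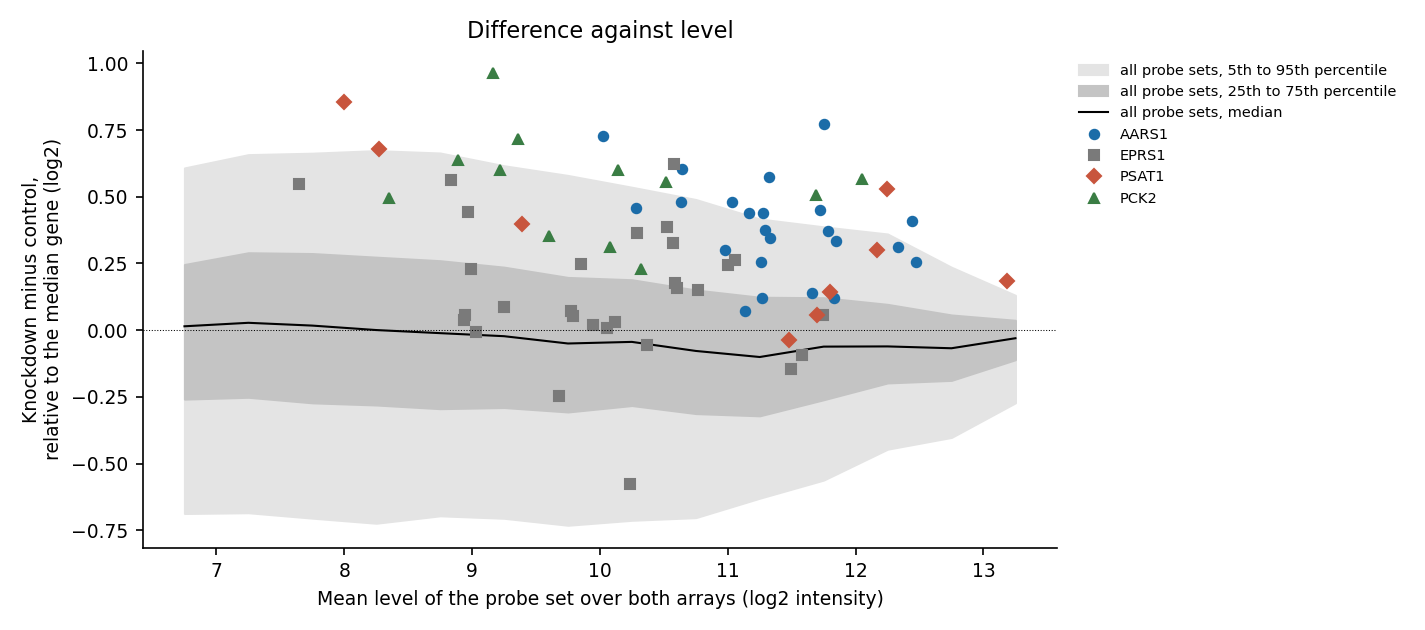
Knockdown minus control relative to the median gene (log2) against the mean level of the probe set over both arrays (log2 intensity), with 1 symbol per probe set of each member and grey bands for the percentiles of all probe sets with a single symbol. The PCK2 probe sets lie above the darker band at every level, and those of EPRS1 are spread around it.

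The other genes of the pathway were taken from 8 fixed lists, and all those with at least 4 probe sets are given. Of 158 listed genes besides the members 31 could be measured so. Of these, 8 were at least 25% higher than the median gene (25.8%, against 11.5% of all genes) and 3 at least 20% lower, the same fold downward (9.68%, against 14.1%). Their median was 0.15, where that of all genes is 0 by definition. Like the members, the lists were chosen with earlier results of these data known, so these shares do not test the pathway. In deposited values 20 of the 31 were at least 25% higher, as were 43.8% of all genes, and 0 at least 20% lower, as were 3.28%. ATF4 itself, ASNS, PHGDH, DDIT3 and TRIB3 are not among the 31 and were not analysed here.

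Few other tRNA synthetases could be measured, 3 of the 21 genes of the cytosolic list and 5 of the 17 of the mitochondrial list. Among cytosolic enzymes, leucyl-tRNA synthetase LARS1 lay at 0.20 ± 0.29 over 35 probe sets, histidyl-tRNA synthetase HARS1 at -0.0043 ± 0.23 over 14 and valyl-tRNA synthetase VARS1 at -0.27 ± 0.22 over 24 (log2 difference relative to the median gene, mean ± SD over probe sets, here and below). VARS1 was thus almost level between the arrays in deposited values, 9.40 against 9.39. Of the 5 mitochondrial synthetases the asparaginyl enzyme NARS2 was at least 25% higher, at 0.39 ± 0.25 over 12 probe sets. MARS2 lay at 0.15 ± 0.29, SARS2 at 0.15 ± 0.27, IARS2 at 0.11 ± 0.29 and HARS2 at -0.02 ± 0.25. With the brightest probe set in place of the mean, MARS2 (0.66) and SARS2 (0.44) also passed the 25% line, HARS1 (-0.36) passed the 20% line downward, and the median of the 5 mitochondrial genes went from 0.15 to 0.44. In all, by means over probe sets, 1 of these 8 synthetases was at least 25% higher (12.5%, near the 11.5% of all genes), which says nothing particular about the class. XPOT, which exports tRNAs from the nucleus, lay at 0.42 ± 0.24 with each of its 22 probe sets above the median gene.

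Enzymes of amino acid synthesis were mixed. Of the 17 genes beside PSAT1 in the serine and one-carbon list, 2 could be measured. The cytosolic serine hydroxymethyltransferase SHMT1 lay at 0.19 ± 0.17. The mitochondrial enzyme MTHFD1L lay at -0.21 ± 0.20, and at -0.35 with its brightest probe set. Of its 28 probe sets, 24 lay at or below the median gene. In the list of other synthesis enzymes, the branched-chain aminotransferase BCAT1 lay at 0.41 ± 0.29, with 16 of 17 probe sets above the median gene. The alanine aminotransferase GPT2 lay at 0.32 ± 0.25 and cystathionine beta-synthase CBS at 0.29 ± 0.20, both just under the 25% line. GPT2 passed it after loess (0.38) or quantile normalization (0.39) and with the median over probe sets (0.34), but had 0.04 at its brightest probe set, where CBS had 0.40. CBS also just passed it after quantile normalization (0.32). The brightest probe set of CBS lay just under that line against the median gene used elsewhere. ALDH18A1, which makes the proline precursor from glutamate, lay at -0.58 ± 0.21, with all 20 probe sets below the median gene. Its brightest probe set, at -0.29 against the median gene of that setting, was not 20% lower. Against the median gene used elsewhere it lay past that line. Its deposited mean level was 10.67 against 10.97 in the control.

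Of the 24 listed amino acid transporters 6 could be measured. Of these, 5 lay above the median gene, as do 50% of all genes by definition. The glycine transporter SLC6A9 was the highest of the 31 genes at 0.67 ± 0.34 over 6 probe sets, although only 1 of these was brighter than the median probe set and its brightest gave 0.16. The large neutral amino acid transporter SLC43A1 lay at 0.54 ± 0.24, with all 16 probe sets above the median gene. SLC7A5, the light chain of another leucine transporter, lay at 0.29 ± 0.25 and the neutral amino acid transporter SLC1A4 at 0.22 ± 0.20. Their brightest probe sets gave 0.46 and 0.34, but that of SLC1A4 lay under the 25% line against the median gene used elsewhere. SLC7A5 also passed the 25% line after loess or quantile normalization (0.36 and 0.37). SLC38A2, an amino acid transporter known to respond to amino acid lack, lay at 0.10 ± 0.23 over 25 probe sets and SLC38A7 at -0.03 ± 0.35. The 6 transporters had a median of 0.25, and 2 of them were at least 25% higher (33.3%, against 11.5% of all genes).

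Factors upstream of ATF4 lay on both sides. The kinase EIF2AK4, known as GCN2, which phosphorylates eIF2 when uncharged tRNA builds up, had mean levels of 8.85 and 8.93 (knockdown and control) and lay at -0.36 ± 0.26, with all 7 probe sets below the median gene. It was no longer 20% lower with its brightest probe set (-0.31) or without dim probe sets (-0.29), each against the median gene of that setting. Against the median gene used elsewhere, its brightest probe set lay past that line. The kinase EIF2AK2, known as PKR, which senses double-stranded RNA, lay at -0.58 ± 0.19, with all 16 below. Of the guanine nucleotide exchange factor for eIF2, the subunit EIF2B2 lay at 0.48 ± 0.23 with all 9 above, but at 0.19 with its brightest probe set. EIF2B5 lay at 0.15 ± 0.31 and EIF2B4 at -0.08 ± 0.29. The eIF2 subunit EIF2S3 lay at -0.06 ± 0.29, and at -0.35 with its brightest probe set, where EIF2B5 had 0.33. That of EIF2B5 lay under the 25% line against the median gene used elsewhere. OMA1, the mitochondrial protease known to signal mitochondrial stress to eIF2, lay at 0.50 ± 0.23 with all 9 above, although 1 of these 9 was brighter than the median probe set. Of the 18 listed factors these 7 could be measured, with a median of -0.06. Of the 7, 2 were at least 25% higher (28.6%, against 11.5% of all genes) and 2 at least 20% lower (28.6%, against 14.1%). Their median turned to 0.03 after quantile normalization, 0.01 after loess and 0.22 in deposited values.

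HERPUD1, an endoplasmic reticulum protein induced by the stress response of that compartment, lay at 0.45 ± 0.19 with all 12 probe sets above the median gene. Beside PCK2, the succinate-CoA ligase subunit SUCLG1 lay at 0.17 ± 0.19 and mitochondrial malate dehydrogenase MDH2, which supplies oxaloacetate, at -0.09 ± 0.14. These partners of PCK2 thus lay within the 25% and 20% lines, where PCK2 itself was 1.46-fold higher. They were the only 2 of the 15 listed partners that could be measured.

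**Figure D4:**
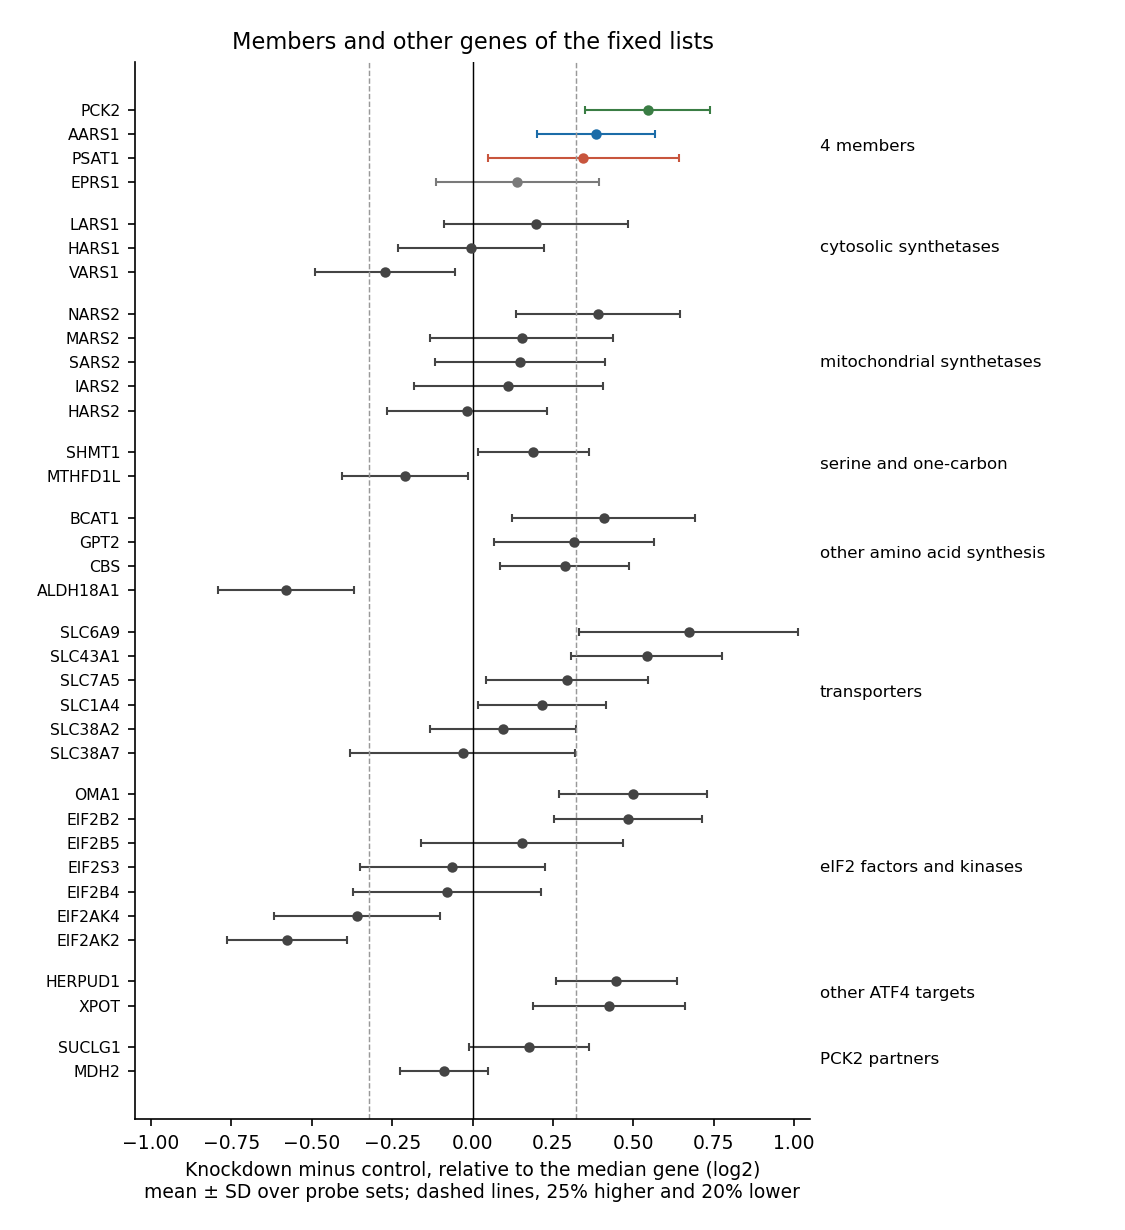
Knockdown minus control relative to the median gene (log2, mean ± SD over probe sets) for the 4 members and for the 31 other genes of the fixed lists, grouped by list, with dashed lines at 25% higher and 20% lower. Among the 31, 8 lie beyond the upper line and ALDH18A1, EIF2AK2 and EIF2AK4 beyond the lower.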

How the data were processed

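The authors' deposited table holds 1 number per probe set for 2 arrays, 1 per group, on an unstated scale. The authors deposited these values as natural logs of intensity, to judge by the numbers alone, because the exponentials under 2000 pile up at steps of 0.5 plus a fixed residue (1154 and 1167 values in the fullest bin of 0.001, against means of 82.7 and 84.2). They were converted to log2. The authors' normalization, software and build are not given in the sources. Symbols came from the platform annotation and were updated through RefSeq (331 of 2795). A gene's value is the mean over its probe sets; the median gene was taken over genes with at least 4. Genes named are the members and all measured genes of the fixed lists; the rule also asked for the 3 genes nearest to each member in level, which are not given because the brightness of different probe sets cannot be compared. Members and lists were chosen with earlier results of these data known. The summary was tested on simulated data. Alternatives changed the summary over probe sets, the filter on dim probe sets, the offset (none, quantile, loess with span 0.3), the scale, the number of probe sets and the motif. No replicates exist, so the number of arrays limits the precision. Python 3.11.15, pandas 2.3.3 and statsmodels 0.14.6 were used.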

Additional observations from a re-analysis of the deposited data

How the results depend on the processing

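The means of the 4 members stayed above 0 under all 10 alternatives run. Their ranges were 0.38 to 0.83 for PCK2, 0.27 to 0.67 for AARS1, 0.23 to 0.63 for PSAT1 and 0.09 to 0.42 for EPRS1. The upper ends are the deposited values with no centring, where PCK2 was 0.83, AARS1 0.67 and EPRS1 0.42. There 75.2% of all probe sets lay above 0. Some of the 10 could not have turned a positive mean. No centring adds 0.29 to every gene, and the log2 reading multiplies by a constant. The median probe set, as reference, lies at 0.26, below the median gene. Without centring, 1201 genes were at least 25% higher and 90 at least 20% lower, against 314 and 387 relative to the median gene, and 359 were at least 1.5-fold higher and 25 lower, against 62 and 100. The other pathway genes past these lines then numbered 20 higher and 0 lower. Members at 1.5-fold or more numbered 3 without centring and 1, PCK2, with the brightest probe set, quantile normalization or loess, against 0. The brightest probe set of PCK2 passed that line only against the median gene of its own setting. With the brightest probe set 12 other pathway genes were at least 25% higher and 4 at least 20% lower, against 8 and 3. Over all genes 453 and 503 passed these lines, against 314 and 387, and 144 were at least 1.5-fold higher and 188 lower. CBS, BCAT1, SLC1A4, EIF2B5 and XPOT passed the 25% line only against the median gene of this setting. ALDH18A1, EIF2AK4 and EIF2B4 passed the 20% line downward only against the median gene used elsewhere. Without dim probe sets, where 23 of the 31 other pathway genes remained, 1 was at least 20% lower. Read as log2, the values gave 1 member and 4 other pathway genes at least 25% higher, with 120 genes at least 25% higher and 193 at least 20% lower, and 16 and 29 at 1.5-fold; this scale multiplies every difference by a constant. The longer motif TGATGCAAT occurs in 0.236% of promoters and in 0 of the 4 members, and ATGCAA, chosen after the sequences were seen, in 10.1% and 3. No paired analysis was possible because each group has 1 array and the labels carry no replicate numbers.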

Other observations

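The TGATGNAA motif was looked for in the promoters of the other pathway genes. It was found in 4 of the 28 that matched a RefSeq promoter (14.3%): BCAT1, HERPUD1, SLC1A4 and MTHFD1L. Relative to the median gene the first 3 had mean log2 differences of 0.41, 0.45 and 0.22, and MTHFD1L one of -0.21. Among the genes on the array with at least 4 probe sets and a matched promoter, 65 of 2337 (2.78%) held the motif. The median difference was 0.16 over those 65 genes and 0.0033 over the rest, a description of these 2 arrays without a test. The 65 include AARS1 and the 4 genes just named, which were chosen with earlier results known. For ATGCAA, held by 196 of the 2337 genes (8.39%), the medians were 0.04 with it and 0.0033 without.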
